A study of Mus musculus with 4 samples.

Results

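The genes described here encode 10 subunits of AP-1, a transcription factor that binds DNA as a pair of basic leucine zipper (bZIP) proteins: Fos, Fosb, Fosl1 (Fra-1) and Fosl2 (Fra-2) of the Fos family, Jun, Junb and Jund of the Jun family, and the related Atf3, Maff and Batf3. They were chosen by gene symbol from general knowledge of the family, with earlier results of these data known but no threshold on a measured value, and are 10 of the 56953 genes in the deposited count table. RNA came from dorsal skin of wild type C57BL/6J mice that received the vehicle DMSO (2 libraries) or an agent labelled NEDD8i at 10 µM (2 libraries) on the skin surface for 3 days. The compound behind the name NEDD8i, the age and sex of the mice, and whether each library came from its own mouse are not stated in the labels, so p-values measure the spread between these libraries, which may be technical. The libraries were made with a QuantSeq FWD kit, which reads transcripts near their 3′ ends.

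Jun proteins pair with each other, with Fos proteins and with some Atf and Maf proteins, whereas Fos proteins need a Jun partner to bind DNA stably. Jun-Fos pairs prefer the site called TRE and Jun-Atf pairs the site called CRE. Most of these genes are immediate early genes, transcribed within minutes of growth factor, stress or wound signals, and in epidermis they act on keratinocyte proliferation, differentiation and inflammation. NEDD8 is a small protein that is attached to cullins and so activates cullin-RING ubiquitin ligases. Some of these ligases, among them those with Fbxw7 or with Cop1 and Det1, mark Jun protein for breakdown. The present data measure RNA and hold nothing on the proteins.

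Promoter sequence was taken from RefSeq (build GRCm38.p6), which held 9 of the 10 genes (all but Fosl1) in windows of 300 bases around a start. Below are the 250 bases upstream of the starts of Fos and Jun, shown because their RNA levels followed each other most closely over the 4 libraries, and of the second listed start of Maff, shown because it alone among these genes' windows held a CRE. They were chosen after values were seen, and capitals mark a match to a searched motif. The stretches lie at chr12:85473640-85473889 on the plus strand, chr4:95052223-95052472 on the minus strand and chr15:79347270-79347519 on the plus strand.
Fos: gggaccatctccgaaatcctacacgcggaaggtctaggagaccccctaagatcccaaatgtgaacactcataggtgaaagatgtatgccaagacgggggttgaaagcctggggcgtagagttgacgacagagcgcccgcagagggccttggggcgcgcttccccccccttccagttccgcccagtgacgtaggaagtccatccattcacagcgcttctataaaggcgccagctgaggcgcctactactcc
Jun: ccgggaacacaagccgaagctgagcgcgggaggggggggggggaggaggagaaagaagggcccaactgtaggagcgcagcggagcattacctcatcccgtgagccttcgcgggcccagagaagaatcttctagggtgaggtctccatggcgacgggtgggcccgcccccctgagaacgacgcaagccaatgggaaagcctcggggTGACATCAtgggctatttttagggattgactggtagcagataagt
Maff: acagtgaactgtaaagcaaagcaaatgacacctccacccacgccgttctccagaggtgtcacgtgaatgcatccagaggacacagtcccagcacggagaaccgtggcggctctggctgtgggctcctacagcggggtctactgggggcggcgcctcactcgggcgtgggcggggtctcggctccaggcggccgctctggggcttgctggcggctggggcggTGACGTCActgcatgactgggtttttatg

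The windows were searched on both strands for the TRE (TGAGTCA or TGACTCA), the CRE (TGACGTCA), the variant TGACATCA and the CArG box, the binding site of serum response factor. None of the windows of these 9 genes held a TRE, which stood in 5.2% of 32851 promoter windows of the same length. For Junb and Jund, the bases after the listed start were found in 0 GENCODE M21 (GRCm38) transcripts of the gene. Their windows may therefore not lie at a transcript start. The Maff window above held the CRE 29 bases upstream of the start, a motif found in 1.79% of all windows. Jun held the variant 45 bases upstream of its start, as did the third listed start of Maff, against 3.62% of all windows. In the Jun promoter these letters are the long-known element bound by Jun-Atf2 pairs. None of the 9 genes' windows held a CArG box as searched (1.63% of all windows), and no match overlapped another. A missing match says only that these letters are not in that window.

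The libraries held 5955627 and 5639791 counts for DMSO and 8856572 and 8833217 for NEDD8i, of which 52.6% to 61.7% fell on 3 ribosomal RNA genes. Levels are in CPM (counts scaled to a common library total) after TMM scaling, which adjusts library totals so that most genes keep their level. No pair of libraries agreed within sampling noise. Keratinocyte markers (10 of 10 tested) summed to between 9117 and 15569 CPM in every library. Dermal fibroblast markers summed to 59.0 and 10.3 CPM in DMSO and 41.8 and 88.6 in NEDD8i, and endothelial markers to at most 17 counts in a library, with Cdh5 at 0, although the label names the full thickness of the skin. Hair shaft and inner root sheath markers (12 of 12 tested, none past the threshold) set DMSO replicate 1 apart, with 6472 CPM against 35.7 in DMSO replicate 2 and 28.5 and 409 in NEDD8i replicates 1 and 2. In RNA of a whole tissue, fewer cells of a type and less RNA per cell cannot be told apart.

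Of the 10 AP-1 genes, only Fosl1 changed under NEDD8i at an adjusted p under 0.05: it was 6.25-fold higher. Maff had the next largest difference, a 2.56-fold higher level that missed the threshold, and the abundant subunits Fos, Fosb, Jun, Junb, Jund and Atf3 had fold changes between 0.69 and 1.12, none of which passed. Genes with enough counts, 11388 in all, were tested by the quasi-likelihood method of edgeR, and p-values were adjusted over all of them (Benjamini-Hochberg). This called 1 of the 9 tested members (11.1%) against 0.782% of all tested genes in either direction, 0.667% higher and 0.114% lower. Since the members were chosen with earlier results known, nothing particular to the family is read from that share. With all 4 libraries in the fit, no member was called lower by edgeR, by DESeq2 or by limma-voom. The 2 members at an unadjusted edgeR p under 0.05, Fosl1 and Maff, were both higher. Of all 11388 tested genes, 1878 had an unadjusted edgeR p under 0.05, so nothing is read from the count of 2. The median log2 fold change of the 9 members was -0.15, against -0.0032 for all tested genes. On CPM, both NEDD8i libraries lay above both DMSO libraries for 2 members (22.2%) and below for 1 (11.1%), against 25% and 22.9% of all tested genes.

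**Figure D1:**
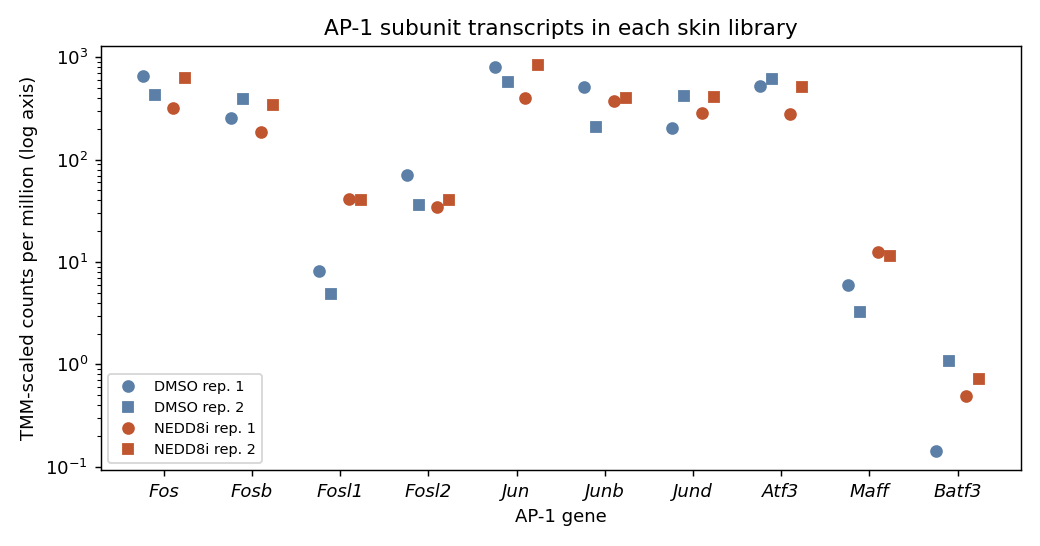
TMM-scaled CPM (log axis) of the 10 AP-1 genes in each of the 4 skin libraries; circles are replicate 1, squares replicate 2, blue DMSO and orange NEDD8i. Fosl1 lies at 8.12 and 4.87 in DMSO and 41.4 and 40.5 in NEDD8i, while the points of Fos, Fosb, Fosl2, Jun, Junb and Jund overlap between the groups.

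Among the Fos family genes, Fos encodes the founding member, which carries a strong transactivation domain. Its level was 656 and 433 CPM in the DMSO libraries and 323 and 631 CPM in the NEDD8i libraries. The highest and the lowest value thus came from different groups, and the groups overlapped. On the log2 scale NEDD8i minus DMSO was -0.19 (SE 0.40, 95% interval -1.10 to 0.72, edgeR adjusted p = 0.864), an interval that holds both a fold of 0.467 and one of 1.64.

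Fosb, which also carries a transactivation domain, stood at 258 and 389 CPM in DMSO and 185 and 342 CPM in NEDD8i. NEDD8i replicate 1 was the lowest library and the groups again overlapped. The fitted difference, -0.29 in log2 units (SE 0.38), missed the threshold (adjusted p = 0.767).

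Fosl1 encodes Fra-1, a Fos protein without the strong transactivation domain of Fos, whose gene is itself a known target of AP-1 and of Erk signalling. It had 57 and 27 reads in the DMSO libraries, or 8.12 and 4.87 CPM, and 335 and 338 reads in the NEDD8i libraries, or 41.4 and 40.5 CPM. Both NEDD8i libraries were above both DMSO libraries and lay within 1.02-fold of each other, while the DMSO libraries differed 1.67-fold. This was a 6.25-fold rise with a 95% interval of 3.57 to 11.0, or 2.64 ± 0.36 (SE) in log2 units (edgeR adjusted p = 0.0162). By unadjusted p it ranked 30 of all tested genes. The rise was past the threshold when each library was left out in turn (log2 fold change 2.35 to 3.06), but not when library totals were used without TMM (2.40, adjusted p = 0.0515). Over all alternatives tried the adjusted p ran from 1.1e-09 to 0.0515.

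The Fosl1 gene (chromosome 19, 5497575 to 5505974, plus strand; coordinates as deposited, taken to be GRCm39) shares 1163 exon bases with Ccdc85b on the other strand. No source used here states whether the counting used strand, so reads in the shared bases could have been left uncounted or given to the other gene. The reads assigned to Ccdc85b numbered 32 and 25 in DMSO and 30 and 14 in NEDD8i, and the part of such loss or exchange in the Fosl1 result was not tested. Markers of macrophages summed to 25.3 and 17.0 CPM in DMSO and 41.9 and 29.4 in NEDD8i (5 of 8 tested, none past the threshold, none at 0 in every library). Markers of Langerhans and dendritic cells summed to 254 and 207 CPM in DMSO and 378 and 360 in NEDD8i (6 of 7 tested, none past the threshold, none at 0 in every library). Of 9 dermal fibroblast markers 7 were tested, with a median log2 fold change of 2.35. Of these, 5 had an unadjusted edgeR p under 0.05, and the same number had both NEDD8i libraries above both DMSO libraries. Of all 11388 tested genes, 1878 had such a p and 25% had such an order of libraries. The fibroblast marker Dpt was called higher, from 7 and 3 reads in DMSO to 56 and 73 in NEDD8i (adjusted p = 0.0446), while Dcn, with 345 and 9 reads in DMSO and 135 and 173 in NEDD8i, made up most of the fibroblast sum in DMSO replicate 1. The part of these 3 marker lists, which were higher in NEDD8i by sum or by median, in the Fosl1 result was not tested. Neutrophil markers summed to 1.57 and 6.14 CPM in DMSO and 10.1 and 5.27 in NEDD8i, with Ly6g, Camp, Ltf, Ngp and Mpo at 0 in all 4 libraries.

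Fosl2, which encodes Fra-2, the closest relative of Fra-1, was at 71.3 and 35.9 CPM in DMSO and 34.5 and 40.1 CPM in NEDD8i. DMSO replicate 1 stood above the other 3 libraries, which lay close together. The fit over all 4 libraries gave -0.52 in log2 units (SE 0.36; adjusted p = 0.525). Without DMSO replicate 2 the difference was -0.92 and without DMSO replicate 1 it was 0.045, so the value rested on which DMSO library was kept. Only the fit without DMSO replicate 2, with a lone DMSO library, put Fosl2 past the threshold, as lower.

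**Figure D2:**
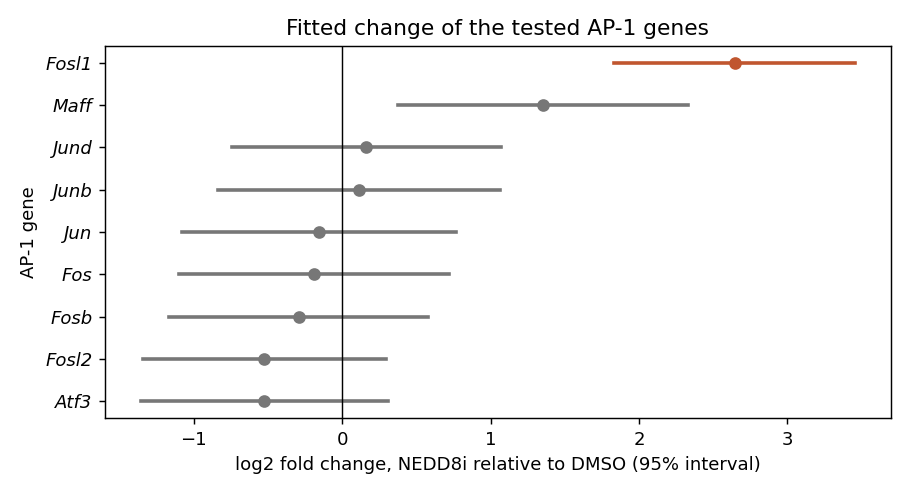
Fitted log2 fold change of NEDD8i relative to DMSO for the 9 tested AP-1 genes, with bars for the 95% interval; the gene past the threshold is orange. The intervals of Fosl1 and Maff lie to the right of 0, and the other 7 cross it.

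In the Jun family, Jun encodes the subunit whose activity is raised by Jnk phosphorylation and which promotes keratinocyte growth. It was at 802 and 578 CPM in DMSO and 402 and 838 CPM in NEDD8i. The NEDD8i libraries, which differed 2.08-fold, enclosed both DMSO libraries. Jun differed by -0.15 in log2 units (SE 0.41, 95% interval -1.08 to 0.77), with an adjusted p of 0.895.

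Junb encodes a Jun protein that often opposes Jun and whose loss in epidermis leads to skin inflammation in mice. It was at 509 and 209 CPM in DMSO and 374 and 404 CPM in NEDD8i. Both NEDD8i libraries lay between the DMSO libraries, which differed 2.43-fold. The fitted log2 difference of 0.11 (SE 0.42) had an adjusted p of 0.924. It was -0.16 without TMM, under which the median of all tested genes moved by -0.219.

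Jund encodes the most broadly and steadily expressed Jun protein. It was at 204 and 418 CPM in DMSO and 285 and 410.4 CPM in NEDD8i, and the DMSO libraries again enclosed the NEDD8i libraries. The order of the DMSO libraries was opposite to that in Junb. NEDD8i minus DMSO came to 0.16 in log2 units (SE 0.40, adjusted p = 0.887), and to -0.0067 without TMM. Jund shares 877 exon bases with Gm11175 on the other strand, which had no reads in any library.

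Atf3 encodes a stress-induced partner of Jun that represses transcription as a pair with itself. It was the only member with both NEDD8i libraries (281 and 516 CPM) below both DMSO libraries (528 and 619 CPM). NEDD8i replicate 2 nevertheless lay close under DMSO replicate 1. At -0.53 in log2 units (SE 0.37, 95% interval -1.36 to 0.31), Atf3 missed the threshold (adjusted p = 0.532).

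Maff encodes a small Maf protein, which has no transactivation domain and pairs with itself or with CNC proteins such as Nfe2l2. It had 42 and 18 reads in DMSO, or 5.98 and 3.25 CPM, and 101 and 95 reads in NEDD8i, or 12.5 and 11.4 CPM. Both NEDD8i libraries were above both DMSO libraries. The difference of 1.35 in log2 units (SE 0.43, 95% interval 0.38 to 2.33) had an unadjusted edgeR p of 0.0121 and an adjusted p of 0.173. Without DMSO replicate 1 the difference was 1.86, and only that fit, with a lone DMSO library, put Maff past the threshold. It shares 416 exon bases with an unnamed gene on the other strand, which had 2 and 5 reads in DMSO and none in NEDD8i.

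Batf3 encodes a Jun partner needed for one class of dendritic cells. It had 1 and 6 reads in DMSO and 4 and 6 in NEDD8i and was not tested because its counts were too low. With 3 reads worth 0.339 to 0.532 CPM before scaling, these counts could not show a small difference in Batf3.

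Between genes, levels were compared as CPM per kilobase of annotated exon. Because 3′ libraries give reads near 1 end of a transcript whatever its length, this scale favours short genes. The order of genes on it depends on exon length. In DMSO the per-kilobase levels of Atf3 (266), Fos (258), Jun (216), Junb (199) and Jund (187) were the highest, and the libraries of these 5 overlapped. Fosb followed at 85.5 and all others were at or under 8.20, the level of Fosl2. Fosl1 stood at 3.48 per kilobase, below Fosl2 in both DMSO libraries, and Maff at 2.01. In NEDD8i the same 5 genes led at 185 to 226, again with overlapping libraries, and Fosb followed at 69.7. Fosl1 stood at 22.0 per kilobase, above Fosl2 at 5.71 in both NEDD8i libraries, and Fosl2 overlapped Maff at 5.20. Batf3 was lowest, at 0.765 and 0.757. Without division by exon length, the NEDD8i libraries had 41.4 and 40.5 CPM of Fosl1 and 34.5 and 40.1 CPM of Fosl2. On the same undivided scale the DMSO mean was 323 CPM for Fosb and 311 CPM for Jund.

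Ratios of reads within a library do not depend on scaling between libraries. Fosl1 contributed 0.267% (exact binomial 95% interval 0.202 to 0.345) and 0.181% (0.119 to 0.263) of the reads of the 10 AP-1 genes in the DMSO libraries. It contributed 2.14% (1.92 to 2.38) and 1.25% (1.12 to 1.39) in the NEDD8i libraries. These intervals cover counting error only, and those of the 2 groups do not overlap. The mean share was 0.224% ± 0.0606 (SD, n = 2) in DMSO and 1.69% ± 0.627 (SD, n = 2) in NEDD8i (p = 0.333, exact permutation test, two-sided, the smallest p that 2 against 2 libraries allow).

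Within the Fos family, Fosl1 made up 0.817% and 0.565% of the reads in DMSO and 7.09% and 3.84% in NEDD8i. Per 100 reads of Fosl2 there were 11.4 and 13.6 reads of Fosl1 in DMSO and 120.1 and 100.9 in NEDD8i. Reads of the Fra pair were thus mostly from Fosl2 in DMSO and about even in NEDD8i. Per 100 reads of Fos there were 1.24 and 1.12 reads of Fosl1 in DMSO and 12.8 and 6.41 in NEDD8i, and Fos reads were in excess in all 4 libraries. Maff made up 0.197% and 0.121% of AP-1 reads in DMSO and 0.645% and 0.352% in NEDD8i (p = 0.333, exact permutation test). Atf3 made up 17.4% and 23.0% in DMSO and 14.5% and 16.0% in NEDD8i, also without overlap (p = 0.333, exact permutation test).

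The summed level of each family overlapped between the groups. Fos family reads summed to 994 and 863 CPM in DMSO and 584 and 1054 CPM in NEDD8i (ratio of means 0.883; p = 1, exact permutation test). Jun family reads summed to 1515 and 1205 CPM in DMSO and 1061 and 1652 CPM in NEDD8i (ratio of means 0.997; p = 1, exact permutation test). Fos family reads per Jun family read were 0.656 and 0.716 in DMSO and 0.551 and 0.638 in NEDD8i, without overlap (p = 0.333, exact permutation test). Within the Jun family the make-up differed more between replicates than between groups. There were 63.5 and 36.3 Junb reads per 100 Jun reads in DMSO and 92.9 and 48.2 in NEDD8i. Jund reads per 100 Jun reads were 25.5 and 72.3 in DMSO and 70.9 and 49.0 in NEDD8i.

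The 2 genes with the closest profiles among the tested members were Fos and Jun, whose log2 CPM, centred on each gene's mean, differed by a root mean square of 0.0558 over the 4 libraries. Fosb and Atf3 came next at 0.182. Egr1, an immediate early gene driven by serum response factor, had 739 and 546 CPM in DMSO and 340 and 689 in NEDD8i. Nr4a1, an immediate early nuclear receptor gene, had 174 and 58.6 CPM in DMSO and 33.9 and 97.2 in NEDD8i. Both were picked for this description after their values were seen, and in both, as in Fos, Fosb, Jun and Atf3, NEDD8i replicate 1 was the lowest library. Fos, Fosl2, Egr1 and Nr4a1 had the same order of libraries as the hair shaft markers, with DMSO replicate 1 highest, then NEDD8i replicate 2, DMSO replicate 2 and NEDD8i replicate 1. The part of hair follicle RNA in these levels was not tested. The sign of the group difference in Fos and Jun turned with the library left out: Fos was at 0.23 and Jun at 0.30 without NEDD8i replicate 1, and at -0.77 and -0.79 without NEDD8i replicate 2, none past the threshold. Atf3 stayed negative in each of these fits, from -1.05 to -0.14.

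**Figure D3:**
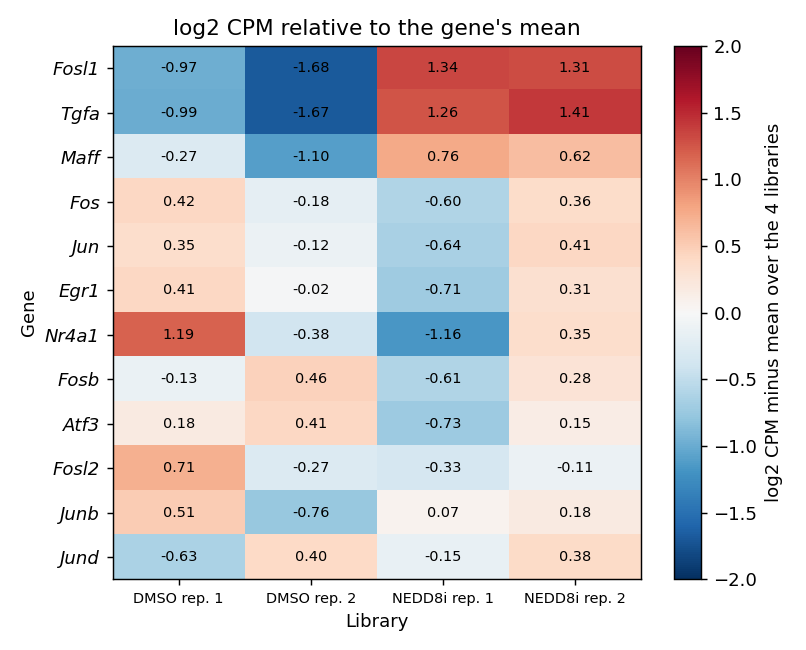
log2 CPM of each gene relative to its mean over the 4 libraries (columns); red is above and blue below the mean. Fosl1, Tgfa and Maff split by treatment, whereas Fos, Jun, Egr1 and Nr4a1 are lowest in NEDD8i replicate 1 and above their mean in NEDD8i replicate 2.

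By the same measure, the tested genes outside the family most like Fosl1 over the 4 libraries were Tgfa, Cd248 and C3ar1. Tgfa, a ligand of the Egf receptor, differed from Fosl1 by a root mean square of 0.0668. It had 50 and 24 reads in DMSO and 282 and 324 in NEDD8i and rose by a log2 fold change of 2.67 (adjusted p = 0.0162), a call that, like that of Fosl1, was lost without TMM. Cd248, a stromal and pericyte surface protein gene, differed by 0.116 and had 2 and 0 reads in DMSO and 17 and 18 in NEDD8i. C3ar1, a complement receptor gene of myeloid cells, differed by 0.118 and had 2 and 0 reads in DMSO and 17 and 17 in NEDD8i. Neither passed the threshold (edgeR adjusted p = 0.156 and 0.162). Their fitted log2 fold changes were 3.63 and 3.59, against 2.64 for Fosl1. At 2 and 0 reads in DMSO, the likeness of Cd248 and C3ar1 to Fosl1 depends on the prior count used for log2 CPM. The genes most like Maff were Rassf8 (0.0518), Gtf3c5 (0.0814) and Alkbh1 (0.0855), none of which passed. With 4 libraries that differ in depth and treatment, likeness of this kind is a description of these libraries.

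Genes around AP-1 were read as lists chosen from general knowledge with earlier results of these data known. Their counts at an unadjusted p under 0.05 stand against 1878 of all 11388 tested genes. Among other bZIP genes, which include partners and competitors of the members, 21 of 24 were tested and edgeR called none. Of these, 3 had an unadjusted p under 0.05, and DESeq2 and limma-voom called none. The median log2 fold change was 0.19. Atf4, the effector of the integrated stress response, had 268 and 183 CPM in DMSO and 384 and 373 in NEDD8i (0.75, adjusted p = 0.291). Maf, a large Maf protein gene, had 271 and 224 CPM in DMSO and 176 and 159 in NEDD8i (-0.57, adjusted p = 0.394). The median of the list was 0.19 without DMSO replicate 1 and 0.30 without DMSO replicate 2.

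Of the kinases and phosphatases that act on AP-1, listed together with the transcription factor genes Elk1, Elk4 and Srf that drive Fos, 35 of 38 were tested and edgeR called none, with 7 at an unadjusted p under 0.05 and a median of 0.24. Dusp1, a phosphatase that inactivates Jnk and p38 kinases, had 230 and 141 CPM in DMSO and 295 and 452 in NEDD8i (1.01, adjusted p = 0.219). Gsk3b, a kinase whose phosphorylation of Jun precedes its breakdown, had 115 and 132 CPM in DMSO and 84.5 and 93.8 in NEDD8i (-0.47, adjusted p = 0.461). Map2k3, a kinase that activates p38 and is outside the rule for named genes, lay just outside the threshold and was picked after its value was seen. It had 64.8 and 50.5 CPM in DMSO and 209 and 164 in NEDD8i (1.69, edgeR adjusted p = 0.0519). It was the 1 gene of the list called by DESeq2 (adjusted p = 1.5e-04), by limma-voom (adjusted p = 0.0455) and without the low-count filter. Map2k3 also missed without TMM (edgeR adjusted p = 0.0909), without the robust option (0.0850) and without ribosomal RNA genes (0.0573). The same held with RLE scaling (0.0555), with a fixed filter (0.0533) and without either NEDD8i library. With each library left out, its log2 fold change ran from 1.52 to 1.87. The median of the list was 0.31 without DMSO replicate 1 and 0.20 without DMSO replicate 2.

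Of the ubiquitin ligase and NEDD8 pathway genes linked to the turnover of Jun and Fos proteins, all 22 were tested and edgeR, DESeq2 and limma-voom called none. Of these, 2 had an unadjusted p under 0.05, and the median was 0.23. Nedd8 itself had 131 and 104 CPM in DMSO and 151 and 120.2 in NEDD8i (0.21, adjusted p = 0.792). Ddb1, an adaptor of Cul4 ligases, had 186 and 161 CPM in DMSO and 240 and 173 in NEDD8i (0.25, adjusted p = 0.751). The median of the list was 0.31 without DMSO replicate 1 and 0.13 without DMSO replicate 2. Cullin neddylation was not analysed here, and RNA levels of these genes do not report it.

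Of genes known as AP-1 targets in keratinocytes or fibroblasts, 36 of 40 were tested. Of these, 8 were called higher, 1 lower and 27 did not pass, and 22 had an unadjusted edgeR p under 0.05. The share called was 25%, against 0.782% of all tested genes, and the median log2 fold change was 1.21, against -0.0032. This list holds genes that were known to have moved in these samples, so its counts are not independent evidence of AP-1 activity. Of the tested matrix metalloproteinase genes, whose products cleave extracellular matrix, Mmp13, Mmp10 and Mmp3 rose. Mmp9, named after its value was seen, had 5.84 and 2.35 CPM in DMSO and 1.24 and 0.598 in NEDD8i (log2 fold change -2.15, edgeR adjusted p = 0.195). Mmp13 had no reads in DMSO and 49 and 26 in NEDD8i, at least 19.1-fold higher when 3 reads are taken as the floor over the DMSO group (edgeR adjusted p = 0.0458). Mmp10 had 0 and 1 read in DMSO and 139 and 119 in NEDD8i, or 197 times as many after scaling, for which counting error alone gives 35.1 to 7819 (adjusted p = 0.00574). Mmp3 had 7 and 15 reads in DMSO and 495 and 345 in NEDD8i, a log2 fold change of 4.82 (edgeR adjusted p = 0.00574). The median is the same with Mmp13 at its bound. The part of the fibroblast markers given above, which were higher in NEDD8i by median, in these values was not tested.

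Among genes of this list with products in the cornified envelope, Sprr1a and Sprr2d rose and Lor fell, while Sprr1b (3.53, adjusted p = 0.129), Ivl (0.64, adjusted p = 0.366), Tgm1 (0.21, adjusted p = 0.858) and Flg (-2.34, adjusted p = 0.0548) did not pass. These 4 were named after their values were seen. Sprr1a, which encodes an envelope precursor made by stressed keratinocytes, had 159 and 157 CPM in DMSO and 2358 and 2629 in NEDD8i, a log2 fold change of 3.98 (edgeR adjusted p = 0.00390). Sprr2d, of the same family, had 3 reads in each DMSO library and 175 and 168 in NEDD8i (5.40, edgeR adjusted p = 0.00390). Lor, which encodes loricrin, the main protein of the mature envelope, fell by 3.05 on the log2 scale (edgeR adjusted p = 0.0377). The other 3 that rose were Krt6a, a keratin of activated epidermis (3.38), Ptgs2, the inducible cyclooxygenase gene (2.68), and S100a8, an alarmin gene of stressed keratinocytes and neutrophils (2.28). The summed neutrophil markers given above reached at most 10.1 CPM. The median of the list was 1.51 without DMSO replicate 1 and 0.97 without DMSO replicate 2. It was 1.33 without NEDD8i replicate 1 and 1.04 without NEDD8i replicate 2. Sprr1a, Sprr2d, Mmp3, Mmp10 and Krt6a were called in all 15 alternatives tried, whereas the call was lost in 1 for Ptgs2, in 3 for S100a8, in 5 for Mmp13 and in 6 for Lor. All 4 of these lost it when NEDD8i replicate 1 was dropped, and Lor also when NEDD8i replicate 2 was dropped.

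Of other immediate early genes, all 34 were tested and edgeR, DESeq2 and limma-voom called none. Of these, 5 had an unadjusted p under 0.05, and the median was 0.18. Nfkbia, an inhibitor of NF-κB, had 2256 and 1981 CPM in DMSO and 2484 and 3759 in NEDD8i (0.56, adjusted p = 0.499). Klf4, an epidermal differentiation factor gene, had 1083 and 1201 CPM in DMSO and 1344 and 1406 in NEDD8i (0.27, adjusted p = 0.737). The median of the list was 0.47 without DMSO replicate 1 and 0.078 without DMSO replicate 2.

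**Figure D4:**
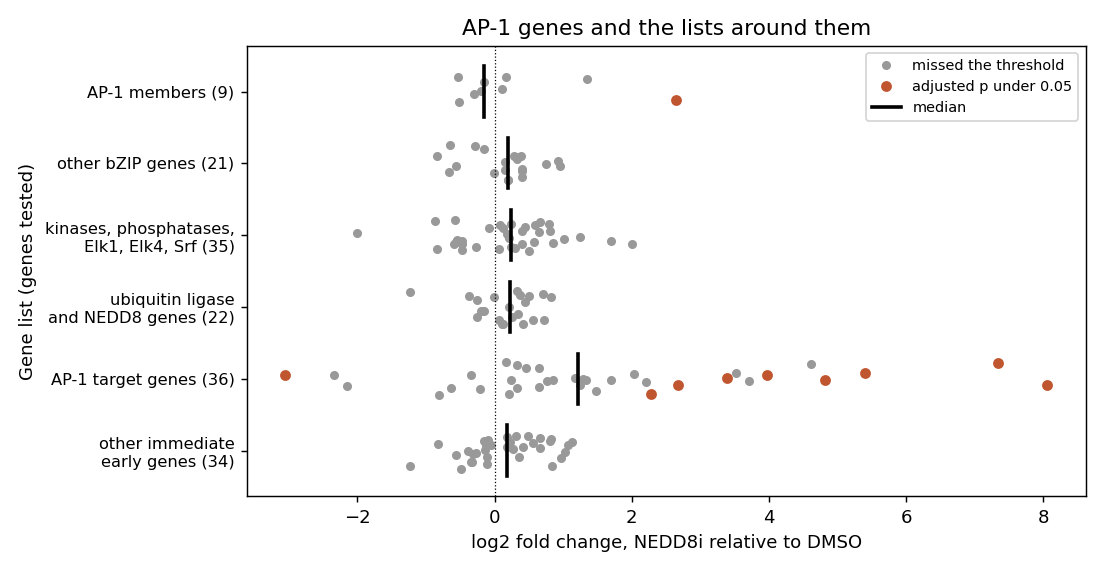
Fitted log2 fold change, NEDD8i relative to DMSO, of each tested gene in the AP-1 family and the 5 lists around it; orange points passed the threshold and black lines mark medians. Calls occur in the AP-1 members (1) and the AP-1 targets (9), and the fitted positions of Mmp13 and Mmp10, which had 0 and 1 reads in DMSO, depend on the prior count.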

How the data were processed

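Whole-number read counts per gene in mouse skin were used as the authors deposited them. The submitters' processing notes name STAR, featureCounts, DESeq2 and the builds GRCm38 and GRCm39, with no versions or roles. Of 52029 genes matched to GENCODE M21 (GRCm38), 2.7% had the same start, and none of the 10 members did, so coordinates were taken to be GRCm39. No source used here states whether counting used strand.

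All columns were matched to a sample by name (0 unused). edgeR 4.0.16 in R 4.3.3 (glmQLFit with the robust option, TMM) tested the genes kept by filterByExpr (minimum count 10, minimum total 15) at an adjusted p under 0.05, with limma 3.58.1 and DESeq2 1.42.0 as alternatives and a prior count of 2 for log2 CPM. The scripts were tested on simulated data. The biological coefficient of variation was 34.6% and the median standard error 0.42 (log2).

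Members and lists were chosen with earlier results of these data known. Genes named were all members, up to 5 called genes per list by size or else the 2 most abundant, and the 3 genes most like each called member and the missed member with the lowest p. Predicted genes were left out of the latter. The replicate numbers shared by the groups are not stated to mark a mouse or day. The alternatives were other scalings, filters and tools, thinned counts, no ribosomal RNA genes, a replicate block, and fits without each library.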

Additional observations from a re-analysis of the deposited data

How the results depend on the processing

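With 2 libraries a group, leaving out 1 library leaves 1 group with a lone library that is assumed to vary like the other group. Counts of calls from such fits are not read as results about a list. Fosl1 was called in every alternative except library totals without TMM. Genes called numbered 89, and 47 without TMM, 703 without the filter (385 higher, 318 lower), 414 with DESeq2 (237 higher, 177 lower), 48 without the robust option, 161 with counts thinned to 1 depth and 44 to 1358 with each library left out. AP-1 members called numbered 1, and 0 without TMM and 1 to 2 with each library left out. Calls with each library left out were 0 to 4 for other bZIP genes, 0 to 4 for kinases and phosphatases, 0 to 2 for ubiquitin ligase genes, 6 to 22 for AP-1 targets and 0 to 6 for other immediate early genes. The kinase list had 1 call without the filter, with DESeq2, with limma-voom and with thinned counts. AP-1 targets called, 9 in the main test, numbered 18 without the filter and 15 with DESeq2, and other immediate early genes 2 without the filter. Without TMM, Junb was at -0.16 and Jund at -0.0067. With each library left out, the log2 fold change ran from -0.77 to 0.23 for Fos, -0.82 to 0.10 for Fosb, -0.92 to 0.045 for Fosl2, -0.79 to 0.30 for Jun, -0.37 to 0.88 for Junb and -0.27 to 0.79 for Jund. The cause was not tested. Deviations from the group means of same-numbered libraries had a correlation of -0.13 across 11388 genes. With 2 libraries a group, this cannot decide whether same-numbered libraries share a mouse or day. The replicate block gave 289 called genes and 1 call in the kinase list, and changed no member's call. A crossed replicate block, chosen after seeing the data, gave 493 called genes, 1 kinase and 15 AP-1 targets.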
